A study of Homo sapiens with 6 samples.

Results

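PD-L1, encoded by CD274, and the other ligands of the B7 family are surface proteins with which a cell tells a T cell to go on or to stop. The 7 genes described here are CD274, PDCD1LG2, CD276, CD80, CD86, ICOSLG and VTCN1, out of 18417 genes measured in IMR90, a line of human lung fibroblasts. Probe sets assigned to exactly 1 gene symbol were used, chosen by their mean level over the 6 arrays where a gene had several, and each of the 7 genes had 1 probe set. The tested arrays were 3 from cells given a single dose of 10 ng/mL recombinant human oncostatin M, set against 3 from untreated control cells, with 1 array of total RNA per sample. The sources used here do not give the time of exposure, and IMR90 is a single cell line. The ligands were chosen with earlier results in hand, among them the fall of CD274, so its p-value describes these arrays and is not independent evidence.

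B7 ligands sit on antigen-presenting cells and, in part, on tissue cells, and several of them bind receptors of the CD28 family on T cells. CD80 and CD86 deliver the second signal that activates a T cell through CD28 and the brake through CTLA-4, and ICOSLG engages ICOS. PD-L1 and PD-L2 (the product of PDCD1LG2) bind PD-1 and restrain the T cell, and B7-H3 (CD276) and B7-H4 (VTCN1) are mostly described as inhibitory. CD274 is well known as a gene induced by interferon-gamma through JAK kinases and IRF1, and STAT3, which oncostatin M activates, has also been described as a regulator of it.

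The bases upstream of the CD274 start are shown because they hold the element through which interferon-regulatory factors are known to act on this gene, and those of CD276, a ligand gene that did not pass the threshold, are shown for contrast. Both are the 250 bases before an annotated start, 5' to 3', from RefSeq on GRCh38.p14, and an entry was found for 6 of the 7 ligand genes, that is for all but PDCD1LG2. Capitals mark matches on either strand to TTCNNNGAA, the STAT site known as GAS, or to GAAA repeated after any 2 bases, the core of the interferon-stimulated response element (ISRE). A match describes letters only and is not evidence of binding.
CD274, chr9:5450292-5450541, plus strand: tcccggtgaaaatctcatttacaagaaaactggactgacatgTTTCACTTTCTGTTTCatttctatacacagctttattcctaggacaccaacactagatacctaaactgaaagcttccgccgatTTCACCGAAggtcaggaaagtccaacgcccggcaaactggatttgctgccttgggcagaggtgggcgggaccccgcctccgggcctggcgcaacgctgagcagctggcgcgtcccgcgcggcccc
CD276, chr15:73684133-73684382, plus strand: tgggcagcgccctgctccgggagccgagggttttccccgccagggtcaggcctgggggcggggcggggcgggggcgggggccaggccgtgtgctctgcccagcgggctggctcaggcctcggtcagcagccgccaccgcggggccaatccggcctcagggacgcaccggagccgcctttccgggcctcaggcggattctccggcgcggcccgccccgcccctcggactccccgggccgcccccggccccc

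The CD274 window held 2 ISRE cores, written TTTCACTTTC and TTTCTGTTTC on the strand shown, which overlap by 4 bases and begin 208 and 202 bases before the start. It also held 1 GAS match, TTCACCGAA, beginning 125 bases before the start. The third motif searched, the AP-1 site TGANTCA, had no match in it. Of 35116 RefSeq windows of the same length, 3.02% held at least 1 ISRE core, 0.225% held 2 or more, 6.57% held a GAS match and 6.57% an AP-1 match. None of the 7 windows of the other 5 ligand genes with an entry (CD276 and CD86 have 2 each) held any of these motifs. The 4 windows of JAK2, a gene called higher and described below, held none of them either. Whether matches go with calls was not tested. The CD276 window shown is 80.8% G and C, against 54.8% in that of CD274.

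As a readout of the treatment, SOCS3, which damps JAK kinases in a feedback loop, was higher by 2.06 (log2, adjusted p = 1.25e-05, limma), and OSMR, the receptor chain that binds this cytokine together with gp130, was higher by 0.82. Array medians lay between 6.54 and 6.66, and oncostatin M 1 had the lowest of the array weights estimated by limma (0.226, the others 0.723 to 3.22). Of 10 fibroblast markers all lay above the level of silent genes. LUM and PDGFRA were called higher and PDGFRB lower after oncostatin M, beside 1.72% of all genes called higher and 1.70% called lower. Without overlap, 5 of the 10 lay higher, beside 7.43% of all genes, and 2 lower, beside 10.6%. Of 13 measured leukocyte and antigen-presenting cell markers, 11 lay at or below the silent level in both groups, CD68 and TYROBP being the exceptions. None of the 13 passed the threshold, which says little at shares of 1.72% and 1.70% over all genes. The mean of these 13 markers was 5.50 to 5.66 on oncostatin M arrays and 5.50 to 5.57 on control arrays. All 5 epithelial and 4 of 5 endothelial markers also lay at or below it, and the fifth, TEK, differed by 0.47 (adjusted p = 0.182). Silent genes are 409 olfactory receptor and keratin-associated protein genes, taken as not expressed in fibroblasts, and the level is their percentile of 95, which was 6.77 on oncostatin M arrays and 6.74 on control arrays.

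Values below are log2 expression as deposited, and differences are oncostatin M minus control on the same scale, with the standard error (SE) or the 95% interval of the limma fit. Adjusted p-values are from limma with Benjamini-Hochberg adjustment over all 18417 genes, with a threshold of 0.05. Levels of different genes come from different probes and are not ranked against each other. Whether the 3 samples of a group came from separate cultures is not stated in the labels, and the p-values therefore reflect sample-to-sample spread that may be technical.

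After oncostatin M the genes of both PD-1 ligands were lower, and no ligand gene was higher. By the means, CD274 was at least 2.42-fold lower, with its oncostatin M mean replaced by the silent level because it lay below it. That figure carries no sampling error. Without the replacement, the 95% interval of the limma fit for the ratio of oncostatin M to control was 0.305 to 0.486. PDCD1LG2 was 1.45-fold lower. The calls thus numbered 2 of 7 in the downward direction, beside 1.70% of all genes called lower. In the upward direction they numbered 0 of 7, beside 1.72% called higher. The ligands were chosen with the fall of CD274 known, so these counts describe these arrays and are not independent evidence. The median difference of the 7 genes was -0.025, beside 0.001 over all genes. RNA of a whole culture was measured, so fewer expressing cells and less RNA per cell cannot be told apart.

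CD274 read 6.43, 6.98 and 6.58 on the oncostatin M arrays, against 8.19, 8.05 and 7.87 on the control arrays. Every oncostatin M array lay below every control array. The mean was 6.66 ± 0.29 after oncostatin M and 8.04 ± 0.16 in control (SD, n = 3 arrays each), a difference of -1.38 (SE 0.15, 95% interval -1.72 to -1.04, adjusted p = 0.00189, limma). The oncostatin M mean of 6.66 lay below the silent level of 6.77 on those arrays and exceeded 94.4% of the silent genes, and the control mean lay above its silent level and exceeded 98.3%. The measured difference is therefore uncertain in size, and no rank is drawn from it.

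PDCD1LG2 read 10.21, 10.35 and 10.25 on the oncostatin M arrays, against 10.88, 10.82 and 10.71 on the control arrays. The groups did not overlap here either. The mean was 10.27 ± 0.07 after oncostatin M and 10.80 ± 0.09 in control (SD, n = 3 arrays each), a difference of -0.53 (SE 0.08, 95% interval -0.71 to -0.35, adjusted p = 0.00852, limma). Both means exceeded at least 99.8% of the silent genes. The call was lost without control 1 (adjusted p = 0.0641) or control 2 (adjusted p = 0.0504), while the difference stayed between -0.58 and -0.50 under every alternative run. By size it was number 170 of the 314 genes called lower.

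CD276 (B7-H3) read 9.51, 9.61 and 9.50 on the oncostatin M arrays, against 9.74, 9.78 and 9.76 on the control arrays. All oncostatin M arrays lay below all control arrays, as they did for 10.6% of all genes. The difference of -0.22 (SE 0.07, 95% interval -0.38 to -0.06) did not pass over all genes (adjusted p = 0.177, limma). It passed under 1 of 16 alternatives, the fit with array weights (-0.23, adjusted p = 0.0468).

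**Figure D1:**
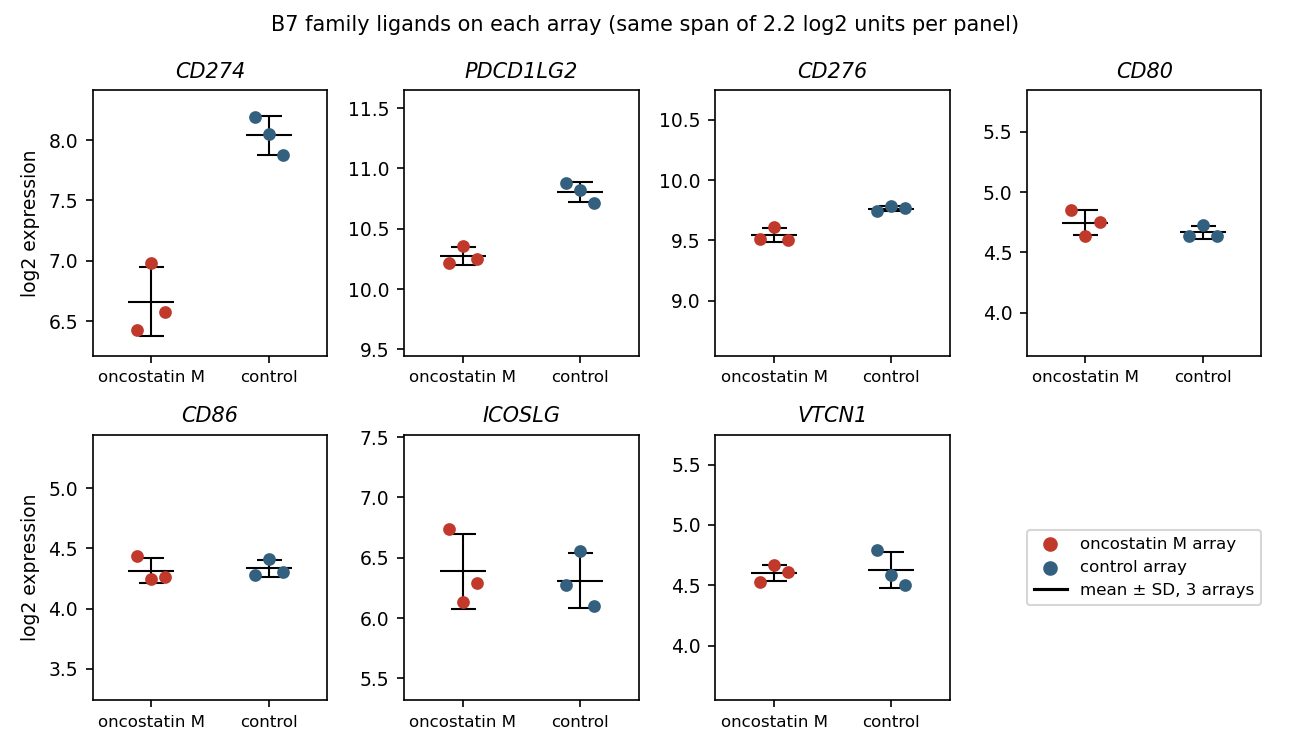
Log2 expression (vertical axis) of each B7 family ligand gene on the 3 oncostatin M arrays (red, left) and the 3 control arrays (blue, right), with mean ± SD bars, and every panel spans 2.2 log2 units. For CD274, PDCD1LG2 and CD276 all red points lie below all blue points, with the widest gap for CD274, and for the other 4 genes the groups overlap.

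CD80 and CD86, which bind both CD28 and CTLA-4, showed no such separation, and neither did ICOSLG and VTCN1, described next. CD80 read 4.85, 4.64 and 4.75 on the oncostatin M arrays, against 4.64, 4.73 and 4.64 on the control arrays, a difference of 0.080 (95% interval -0.10 to 0.26, adjusted p = 0.878, limma). CD86 read 4.43, 4.25 and 4.26 on the oncostatin M arrays, against 4.28, 4.41 and 4.31 on the control arrays, a difference of -0.019 (95% interval -0.21 to 0.17, adjusted p = 0.988, limma). Both genes sat in the middle of the silent genes or below: CD80 exceeded 51.1% of them after oncostatin M and 50.1% in control, and CD86 exceeded 33% after oncostatin M and 34.7% in control. At such a level a change of RNA need not show on the array.

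ICOSLG, the ligand of ICOS, read 6.74, 6.13 and 6.29 on the oncostatin M arrays, against 6.28, 6.55 and 6.10 on the control arrays. It was the most scattered of the 7 genes, with the highest value on oncostatin M 1, and the groups overlapped. Its difference of 0.077 had the widest interval of the 7 (95% interval -0.31 to 0.46, adjusted p = 0.969, limma). VTCN1 (B7-H4) read 4.53, 4.67 and 4.61 on the oncostatin M arrays, against 4.79, 4.58 and 4.50 on the control arrays, a difference of -0.025 (95% interval -0.24 to 0.19, adjusted p = 0.981, limma). ICOSLG exceeded 91.9% of the silent genes after oncostatin M and 90.7% in control, and VTCN1 exceeded 43.8% after oncostatin M and 47.9% in control. Taken with CD80 and CD86, 4 of the 7 ligand genes thus lay at or below the silent level in both groups.

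**Figure D2:**
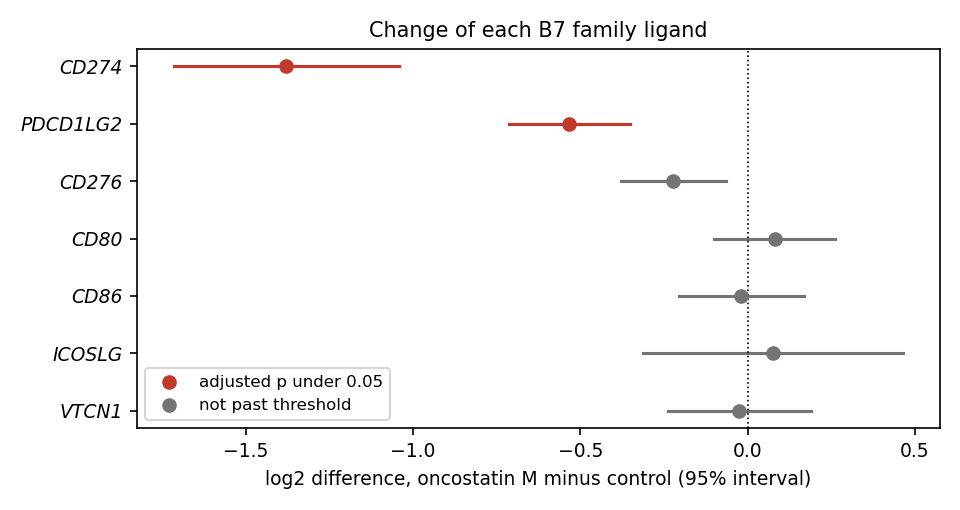
Difference of each ligand gene on the log2 scale (horizontal axis, oncostatin M minus control), with the 95% interval of the limma fit, and red marks an adjusted p under 0.05. CD274 (-1.38) and PDCD1LG2 (-0.53) lie left of 0, CD276 (-0.22) lies closer to 0 without passing, and the other 4 intervals include 0.

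CD274 was also set within each array against PDCD1LG2 and CD276, the 2 ligand genes above the silent level in both groups. The measure was the CD274 value minus that of the other gene. CD274 minus PDCD1LG2 was -3.78, -3.37 and -3.67 on the oncostatin M arrays, against -2.69, -2.77 and -2.84 on the control arrays, a shift of -0.85. CD274 minus CD276 was -3.08, -2.63 and -2.93 on the oncostatin M arrays, against -1.55, -1.73 and -1.89 on the control arrays, a shift of -1.16. Both gave an exact two-sided permutation p of 0.1, also 0.1 when adjusted over the 6 ligand genes, which is the smallest that 3 against 3 arrays can give, so this design cannot pass the threshold. CD274 was chosen with its fall known, so these shifts are a description. Their size is uncertain, because the oncostatin M mean of CD274 (6.66) lay below the silent level of 6.77. For CD80, CD86, ICOSLG and VTCN1, at or below the silent level, such a shift would only restate the fall of CD274. A shift on the array scale also depends on how strongly each probe set responds.

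CD274 and PDCD1LG2 are direct neighbours on chromosome 9, so the 5 nearest measured genes on either side were read from the same fit. None of these 10 passed the threshold, beside 1.70% of all genes called lower and 1.72% called higher. At shares this low, the lack of a call among 10 genes says little about this region. Their differences ran from -0.17 to 0.20. The nearest on one side, PLGRKT, a plasminogen receptor, differed by -0.17 (adjusted p = 0.813). RIC1, next to PDCD1LG2 and involved in Golgi trafficking, read 8.90, 9.06 and 8.90 on the oncostatin M arrays, against 9.16, 9.12 and 9.11 on the control arrays. Its groups did not overlap, with oncostatin M lower, as was so for 10.6% of all genes. The difference of -0.17 for RIC1 did not pass (adjusted p = 0.415, limma). Of the others, INSL6, INSL4, RLN2, RLN1 and MLANA lay at or below the silent level.

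**Figure D3:**
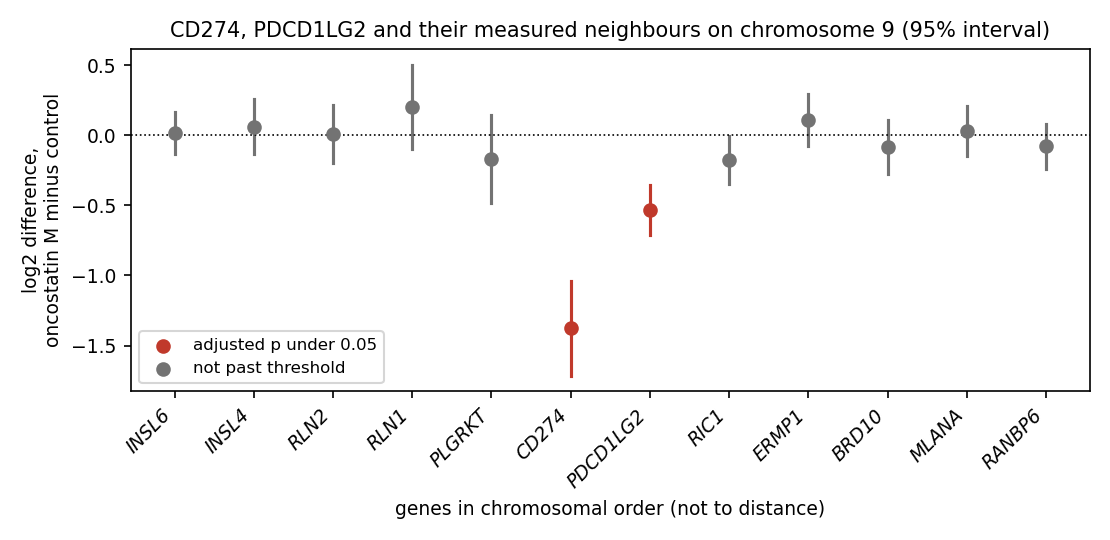
Difference on the log2 scale (vertical axis, oncostatin M minus control, 95% interval) of CD274, PDCD1LG2 and the 5 measured genes on either side, placed in chromosomal order and not by distance. The 2 red genes, CD274 and PDCD1LG2, are the ones past the threshold, and the 10 grey neighbours lie between -0.17 and 0.20.

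JAK2, the tyrosine kinase whose gene starts just beyond those neighbours and carries signals from the interferon-gamma receptor and the oncostatin M receptor, was higher. It read 8.46, 8.66 and 8.54 on the oncostatin M arrays, against 8.17, 7.92 and 8.14 on the control arrays. The groups did not overlap, and the difference was 0.48 (SE 0.09, adjusted p = 0.0316, limma). It stands in a list of 19 measured genes of PD-L1 transcription and interferon receptors, of which 4 were higher and none lower, beside 1.72% of all genes called higher and 1.70% called lower. The median of that list was 0.088, beside 0.001 over all genes, and its lowest difference was -0.30. Without overlap, 6 of the 19 lay higher, beside 7.43% of all genes, and 7 lay lower, beside 10.6%. Over 17 alternatives the count called higher ran from 0 to 5 and the count called lower from 0 to 1.

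The other 3 that rose were STAT3, HIF1A and IRF2. STAT3, the main transcription factor downstream of oncostatin M, was higher by 0.45 (adjusted p = 0.0114, limma) and HIF1A, the hypoxia-inducible factor subunit, also by 0.45 (adjusted p = 0.0323). IRF2, which binds the same response element as IRF1 and is known mainly as its antagonist, read 9.98, 10.14 and 10.16 on the oncostatin M arrays, against 9.54, 9.70 and 9.74 on the control arrays. That is a difference of 0.43 (SE 0.09, adjusted p = 0.0341, limma), with groups that did not overlap. All 4 calls were lost without control 1, control 2 or control 3, with adjusted p up to 0.162 for IRF2, and those of JAK2, HIF1A and IRF2 also without oncostatin M 2 or oncostatin M 3. Over all alternatives the differences were 0.40 to 0.52 for JAK2, 0.37 to 0.52 for IRF2, 0.38 to 0.50 for HIF1A and 0.42 to 0.48 for STAT3. IRF1 itself, named here after its value was seen, differed by 0.14 (95% interval -0.07 to 0.35, adjusted p = 0.723).

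Receptors of the CD28 family and related receptors on T cells were not called. Of 5 measured, none passed, beside 1.70% of all genes called lower and 1.72% called higher, shares that stand beside each list below as well, and 4 of them lay at or below the silent level, while the gene of PD-1 is not analysed here. The largest differences were those of CD28 (-0.12, adjusted p = 0.825) and BTLA (0.083, adjusted p = 0.809). Of 14 other B7-related and butyrophilin genes none passed either, and their median was 0.023. BTN2A2, a butyrophilin, had the largest difference among them (-0.24, adjusted p = 0.241), followed by BTNL9 (0.17, adjusted p = 0.846).

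Among 14 other checkpoint and T cell ligands, 1 was lower and none higher, beside 1.70% and 1.72% of all genes, with a median of 0.066. Over 17 alternatives each of these counts ran from 0 to 2. That gene was RGMB, a bone morphogenetic protein co-receptor that also binds PD-L2. RGMB read 11.37, 11.47 and 11.48 on the oncostatin M arrays, against 11.87, 11.89 and 11.72 on the control arrays, with no overlap. Its difference was -0.39 (SE 0.08, adjusted p = 0.0356, limma), and the call was lost in 5 of the 6 fits that leave out an array, with adjusted p up to 0.179 without control 1. Of the 14 genes, 3 lay lower without overlap (RGMB, CD58 and NECTIN2), beside 10.6% of all genes, and 3 higher (CD47, PVR and LGALS9), beside 7.43%. These 5 besides RGMB were named after their values were seen, and none passed: CD58 differed by -0.34 (adjusted p = 0.203), NECTIN2 by -0.025 (0.973), CD47 by 0.34 (0.0925), PVR by 0.21 (0.198) and LGALS9 by 0.13 (0.638). CD47 signals to macrophages, PVR to the receptors TIGIT and CD226, and CD58 to CD2 on T cells. TNFSF4, the OX40 ligand and also a signal to T cells, is not one of the 14 and was picked for its large fall. It read 7.88, 8.05 and 7.57 on the oncostatin M arrays, against 10.25, 10.12 and 10.10 on the control arrays. That made it 4.99-fold lower.

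No gene acting on the PD-L1 protein was called in either direction among 15 measured, beside 1.70% of all genes called lower and 1.72% called higher. Of the 15, 12 lay below 0 and 3 above, with a median of -0.049. ADAM10, a protease that sheds PD-L1 from the surface, differed by 0.29 (adjusted p = 0.0836, and past the threshold under 5 of 16 alternatives, with adjusted p down to 0.0087) and COPS5, which removes ubiquitin from it, by -0.22 (adjusted p = 0.683). CMTM6, the partner that keeps PD-L1 at the membrane and named here after its value was seen, differed by 0.047 (95% interval -0.15 to 0.24, adjusted p = 0.963). Of 8 measured class II antigen presentation genes none passed, the median was 0.016, and 5 lay at or below the silent level. HLA-DOA differed by 0.14 (adjusted p = 0.896) and HLA-DMB by 0.079 (adjusted p = 0.907).

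**Figure D4:**
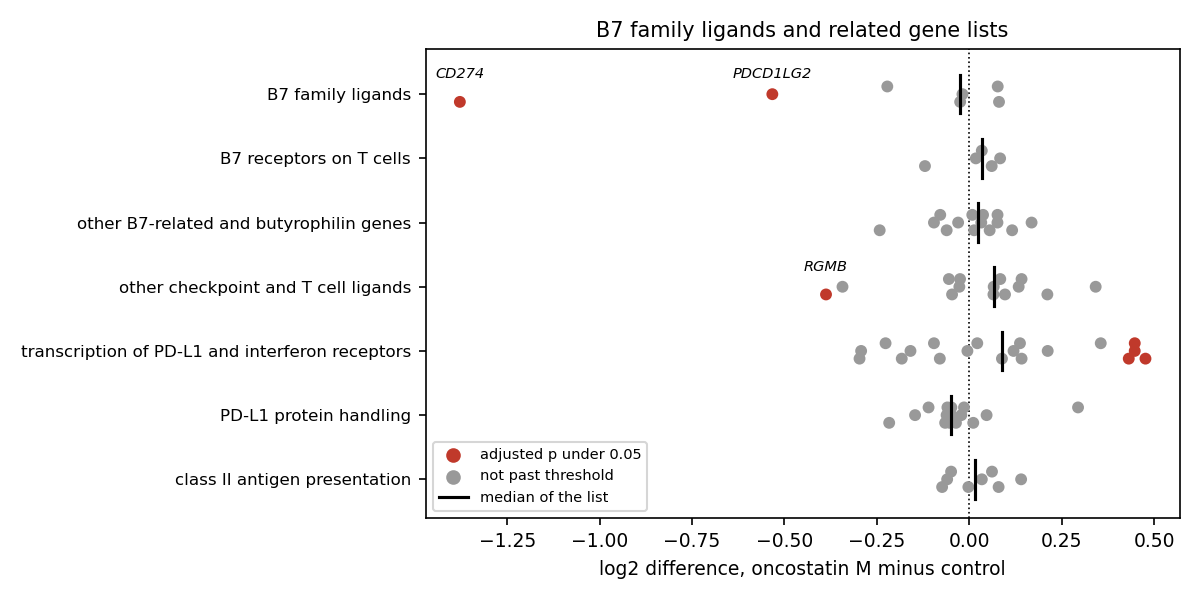
Difference on the log2 scale (horizontal axis, oncostatin M minus control) of each measured gene in the B7 family and in 6 related lists, with 1 point per gene, a black bar at the list's median and red for an adjusted p under 0.05. The red points are CD274, PDCD1LG2 and RGMB on the lower side and 4 genes of PD-L1 transcription and interferon receptors on the higher side.

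The genes whose values ran most like those of CD274 over the 6 arrays were sought by the distance between log2 profiles, each centred on its own mean. They were CLDN1, a tight junction protein, LRRC17, ARHGAP18, HBEGF, which activates the epidermal growth factor receptor, and SPRY2, an inhibitor of receptor tyrosine kinase signalling. Their distances ran from 0.402 (CLDN1) to 0.512 (SPRY2), against a median of 1.77 over all genes. CLDN1 read 10.92, 11.02 and 10.64 on the oncostatin M arrays, against 12.24, 12.12 and 11.93 on the control arrays, with no overlap between the groups. PDCD1LG2 came at place 142, with a distance of 1.08. The measure mainly reflects the step between the groups, and likeness over 6 arrays says nothing of shared control. For CD274 the size of that step is uncertain, because its oncostatin M mean lay below the silent level. Which genes came nearest, and in what order, is therefore uncertain too.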

How the data were processed

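Total RNA of 6 IMR90 samples was isolated with RNeasy and labelled with biotin through Ambion's whole-transcript chemistry, per the labels' protocols. The authors deposited log2 values for each probe set and array. Per the submitters' processing notes they used RMA and Affymetrix Expression Console 1.1. The sources used here name no genome build for the array. RMA makes the arrays' distributions alike and compresses differences at low signal, so changes are relative to other genes.

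Of 33297 probe sets, 19460 had exactly 1 symbol in the platform's gene table, 1754 several and 12083 none. Each of 18417 genes was represented by its brightest probe set (mean of 6 arrays), without a filter on low values. A two-sided model with the group as its term was fitted to all genes in R 4.3.3 with the functions lmFit and eBayes of limma 3.58.1. In simulated arrays with 200 changed genes among 18417, the fit recovered 52.6% of those shifted by 0.5 (log2). It recovered 90.2% of those shifted by 1 and 99.8% of those shifted by 2, with 5.29% false calls. The simulated noise was normal, independent between arrays and equal in spread over the 6 arrays. The measured arrays had unequal weights (0.226 to 3.22), so these rates need not hold for them. Exact permutation tests used scipy 1.17.1. Figures were drawn with matplotlib 3.10.9.

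The ligands and all gene lists were chosen with earlier results of these data known. From each list the text names up to 4 members past the threshold with the largest difference, or where none passed the 2 with the largest. It also names the neighbours, SOCS3, OSMR, STAT3 and the 5 nearest profiles. TNFSF4 is named because it was an immune ligand among the largest falls, so it was chosen by its value. IRF1, CMTM6, CD47, PVR, CD58, NECTIN2, LGALS9 and CD68 are named outside this rule, after their values were seen. Some of the listed genes are not analysed here. Alternatives covered normalization, choice of probe set, filters, variance prior, array weights, a replicate block, the threshold and each array left out. The number of arrays limits the precision.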

Additional observations from a re-analysis of the deposited data

How the results depend on the processing

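CD274 stayed lower and past the threshold under all 16 alternatives run for it (difference -1.54 to -1.26, adjusted p up to 0.0234, limma). The count of ligand genes called lower, 2 of 7, was 1 without control 1 or control 2 and between 2 and 3 otherwise, and no alternative called a ligand gene higher. Leaving out 1 array gave 105 to 332 genes lower and 156 to 400 higher over all genes, against 314 and 316 with all arrays. Array weights gave 610 lower and 667 higher, and the threshold of 0.01 gave 112 and 175. The shift of CD274 against PDCD1LG2 and CD276 kept its direction under quantile normalization and without each array. Differences that did not pass changed sign with the array left out for ICOSLG (-0.098 to 0.20), VTCN1 (-0.088 to 0.060) and CD86 (-0.079 to 0.022), and for ICOSLG with array weights (-0.017). The alternatives for JAK2, RGMB, IRF2, HIF1A, STAT3 and ADAM10 were added after their values were seen. The samples share only replicate numbers (correlations of deviations 0.0635, -0.456 and 0.511), and not every sample correlated best with its own number. With the replicate block 223 genes were lower and 255 higher, CD274 differed by -1.38 (adjusted p = 0.012), and JAK2, RGMB and HIF1A did not pass (adjusted p = 0.11, 0.1 and 0.101). Both filters on low values left out CD80, CD86, ICOSLG and VTCN1. Low signal limits CD80, CD86 and VTCN1 most.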
